A study of Mus musculus with 9 samples.

Results

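The serine synthesis and one-carbon enzymes are the products of 9 genes, Phgdh, Psat1, Psph, Shmt1, Shmt2, Mthfd1, Mthfd1l, Mthfd2 and Aldh1l2, which were taken by symbol from the 22322 genes of the expression table. All 9 were found once. They were compared among 3 groups of mouse RGCs of WT genotype, with 3 libraries in each. Normal RGCs were grown without D-galactose, aging RGCs received 30 mg/mL D-galactose, and the group named aging RGCs + USCs medium received the same D-galactose and then medium conditioned by urine-derived stem cells, from which those cells had been removed. The libraries of a group came from replicate wells of a purchased cell culture, so that p-values measure the spread between wells, and the sources used here do not give how long the sequenced wells were exposed. The sequenced groups held no normal RGCs in USCs medium, which the paper grew for cell counts and viability. They also held no aging RGCs in unconditioned USCs medium. The base of that medium and the products of the USCs therefore cannot be told apart.

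Library totals were 18189610 to 22342283 estimated reads. Levels are given as CPM, which are the reads of a gene scaled to the library total and its TMM factor. Of 12 marker genes of retinal ganglion cells, 4 passed the low-count filter, Rbpms, Isl1, Nefl and Pou4f1. Pou4f2 and Pou4f3, transcription factors that define these neurons, had 0 reads in all 9 libraries, and Thy1 had at most 1 read. The 12 markers summed to 139 to 150.1 CPM in normal, 99.2 to 103 CPM in aging and 75.4 to 83.5 CPM in medium-treated RGCs. The 7 mesenchymal markers summed to 2612 to 3224 CPM over the 9 libraries. Nearly all of it was Vim, at 1662 to 2037 CPM, Fn1 and Col3a1. Col1a1 had at most 17.1 CPM, Pdgfrb at most 5.48 CPM, Acta2 at most 0.757 CPM and Col1a2 at most 0.464 CPM. The 5 glia markers summed to 94.3 to 129 CPM, nearly all of it Glul. The 8 epithelial markers summed to 1047 to 1285 CPM, nearly all of it Krt8, Krt18 and Krt19, while Krt5 had 0 reads, Cdh1, Cldn4 and Krt14 had at most 5 reads, and Epcam had at most 2.76 CPM. The 9 photoreceptor markers summed to at most 3.03 CPM. The name RGCs is therefore used here as the label of the cultures. The 10 macrophage markers summed to 59.2 to 70.1 CPM in the normal group, 44.7 to 51.3 CPM in aging RGCs and 30.9 to 54.7 CPM in the medium, of which Cd68 alone made 28.6 CPM or more. Of the 8 tested, 6 were lower in aging than in normal RGCs, beside 23% of all genes tested. The part of these lists in the results was not tested. In such bulk samples, fewer cells of a type and less RNA per cell cannot be told apart.

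Cells make serine from an intermediate of glycolysis. Phgdh oxidises 3-phosphoglycerate, Psat1 adds the amino group, and Psph removes the phosphate to release serine. Shmt1 in the cytosol and Shmt2 in mitochondria then move a carbon from serine to tetrahydrofolate, which leaves glycine. In mitochondria, Mthfd2 oxidises the folate-bound carbon and Mthfd1l releases it as formate, while Aldh1l2 burns it to CO2 and makes NADPH. In the cytosol, Mthfd1 loads formate back onto folate for the synthesis of purines, thymidylate and methionine. Several of these genes are known targets of ATF4, a transcription factor that responds to amino acid shortage and other stresses.

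All 9 are protein-coding genes of GRCm38 in GENCODE M21, the assembly that the submitters' processing notes name as mm10. Phgdh lies on chromosome 3 from 98313170 to 98339990, Psat1 on chromosome 19 from 15904678 to 15947337, and Psph on chromosome 5 from 129765558 to 129787449. Among the mitochondrial enzymes, Shmt2 lies on chromosome 10 from 127517123 to 127522444, Mthfd2 on chromosome 6 from 83305691 to 83325908, Mthfd1l on chromosome 10 from 3973118 to 4167081 and Aldh1l2 on chromosome 10 from 83487450 to 83534140. Of the cytosolic folate enzymes, Shmt1 lies on chromosome 11 from 60788104 to 60811718 and Mthfd1 on chromosome 12 from 76255298 to 76319803. Psph and Aldh1l2 had fractional read estimates in all 9 libraries, and the other 7 genes had whole numbers. Psph shares 452 exonic bases with Cct6a on the other strand, and Aldh1l2 shares 1056 with D10Wsu102e. The sources used here do not say whether counting used strand. The mean level of Cct6a was 551, 626 and 793 CPM in normal, aging and medium-treated RGCs, and that of D10Wsu102e was 510.3, 629 and 651 CPM. The means of both neighbours were higher in aging than in normal RGCs, where Psph and Aldh1l2 were lower, and higher again in the medium, where Psph and Aldh1l2 were higher too. Shmt1 shares 184 exonic bases with Smcr8 on the other strand. The mean of Smcr8 was 126, 158 and 134 CPM in normal, aging and medium-treated RGCs, so it was higher in aging RGCs, as was Shmt1. The part of reads from the neighbours in these values was not tested.

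The sequences before the start sites are shown for Psph, Shmt2 and Mthfd2, which fell most in aging RGCs after Aldh1l2, and for Shmt1 as the cytosolic counterpart of Shmt2. They are the 250 bases before the start site in RefSeq on GRCm38.p6, read 5′ to 3′ on the minus strand, on which all 4 genes lie. Capitals mark the CCAAT box (CCAAT or ATTGG) and the GC box (GGGCGG or CCGCCC), common promoter elements that were added after the values were seen. The regions are chr5:129787254-129787503 for Psph, chr10:127522445-127522694 for Shmt2, chr6:83317605-83317854 for Mthfd2 and chr11:60811266-60811515 for Shmt1. In GENCODE M21 the gene bounds of Mthfd2 and Shmt1 reach over these windows, and that of Psph reaches into its window.
Psph: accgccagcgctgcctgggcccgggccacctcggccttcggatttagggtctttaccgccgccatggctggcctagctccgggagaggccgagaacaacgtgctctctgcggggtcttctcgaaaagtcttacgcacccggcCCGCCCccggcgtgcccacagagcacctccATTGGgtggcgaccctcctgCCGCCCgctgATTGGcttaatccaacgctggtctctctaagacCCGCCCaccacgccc
Shmt2: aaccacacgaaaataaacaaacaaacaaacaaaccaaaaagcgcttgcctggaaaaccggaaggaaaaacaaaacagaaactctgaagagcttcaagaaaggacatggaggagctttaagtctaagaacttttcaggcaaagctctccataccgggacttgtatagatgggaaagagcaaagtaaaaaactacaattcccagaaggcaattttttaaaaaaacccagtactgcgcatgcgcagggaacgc
Mthfd2: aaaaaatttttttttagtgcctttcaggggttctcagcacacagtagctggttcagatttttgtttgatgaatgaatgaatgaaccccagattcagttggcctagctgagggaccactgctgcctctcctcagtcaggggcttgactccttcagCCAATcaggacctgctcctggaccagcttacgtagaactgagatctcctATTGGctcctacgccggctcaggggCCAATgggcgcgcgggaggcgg
Shmt1: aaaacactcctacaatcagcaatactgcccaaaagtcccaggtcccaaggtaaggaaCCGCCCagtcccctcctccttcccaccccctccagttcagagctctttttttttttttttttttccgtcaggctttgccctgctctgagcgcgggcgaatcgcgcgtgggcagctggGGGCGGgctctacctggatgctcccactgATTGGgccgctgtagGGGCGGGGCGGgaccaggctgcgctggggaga
Psph held 2 CCAAT boxes and 3 GC boxes, Mthfd2 held 3 CCAAT boxes, Shmt1 held 1 CCAAT box and 4 GC boxes, and Shmt2 held neither. Of all 32851 promoters, 33.8% held a CCAAT box and 32.7% a GC box in these 250 bases. The letters of the C/EBP-ATF response element (TGATGCAA, or TGATGNAA with 1 open base), the CRE (TGACGTCA) and the E-box (CACGTG) were searched on both strands in the promoters of 8 enzymes, all but Aldh1l2. None of these 4 strings occurred there, and they occurred in 0.791%, 3.45%, 1.55% and 6.02% of all promoters. The first string is 1 form of the second. These are matches of letters in a short window and say nothing of where a factor binds.

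In aging RGCs against normal RGCs, the whole of the serine synthesis chain and all 4 mitochondrial folate enzymes were downregulated, while both cytosolic folate enzymes were upregulated. The fall was 3.41-fold for Aldh1l2, 2.54-fold for Psph and 2.14-fold for Mthfd2, and the rise was 1.35-fold for Shmt1 and 1.34-fold for Mthfd1. Every one of the 9 genes passed the test at an adjusted p under 0.05 by the quasi-likelihood test of edgeR, adjusted over the 12145 genes tested, 7 lower and 2 higher. Of all genes tested, 46.5% passed, 23% lower and 23.6% higher. Aldh1l2, Psph and Mthfd2 were DEGs, which also requires a log2 fold change of 1 or more in size. Of all genes, 2.65% were DEGs, 1.56% lower and 1.09% higher. Aging and normal values were apart for all 9 genes, a pattern seen in 53% of all genes tested. The median log2 fold change of the 9 was -0.71, and that of all genes tested was 0.0018.

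In the medium, 8 of the 9 genes were upregulated against aging RGCs, and Shmt1 did not pass the test. The rise was 2.44-fold for Aldh1l2, 2.42-fold for Psph and 2.09-fold for Shmt2, and these 3 genes were DEGs. Of all genes tested, 53.1% passed at an adjusted p under 0.05, 27.1% higher and 26% lower, and 5.44% were DEGs, 1.24% higher and 4.21% lower. The values of aging RGCs + USCs medium and aging RGCs did not overlap for 8 of the 9 genes, against 59.8% of all genes tested. Their median log2 fold change was 0.58, and that of all genes was -0.0067. This comparison shares its aging libraries with the one above, so a low value in those libraries enters both. Without TMM factors 7 genes passed and Shmt2 was no longer a DEG, with a log2 fold change of 0.99.

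**Figure D1:**
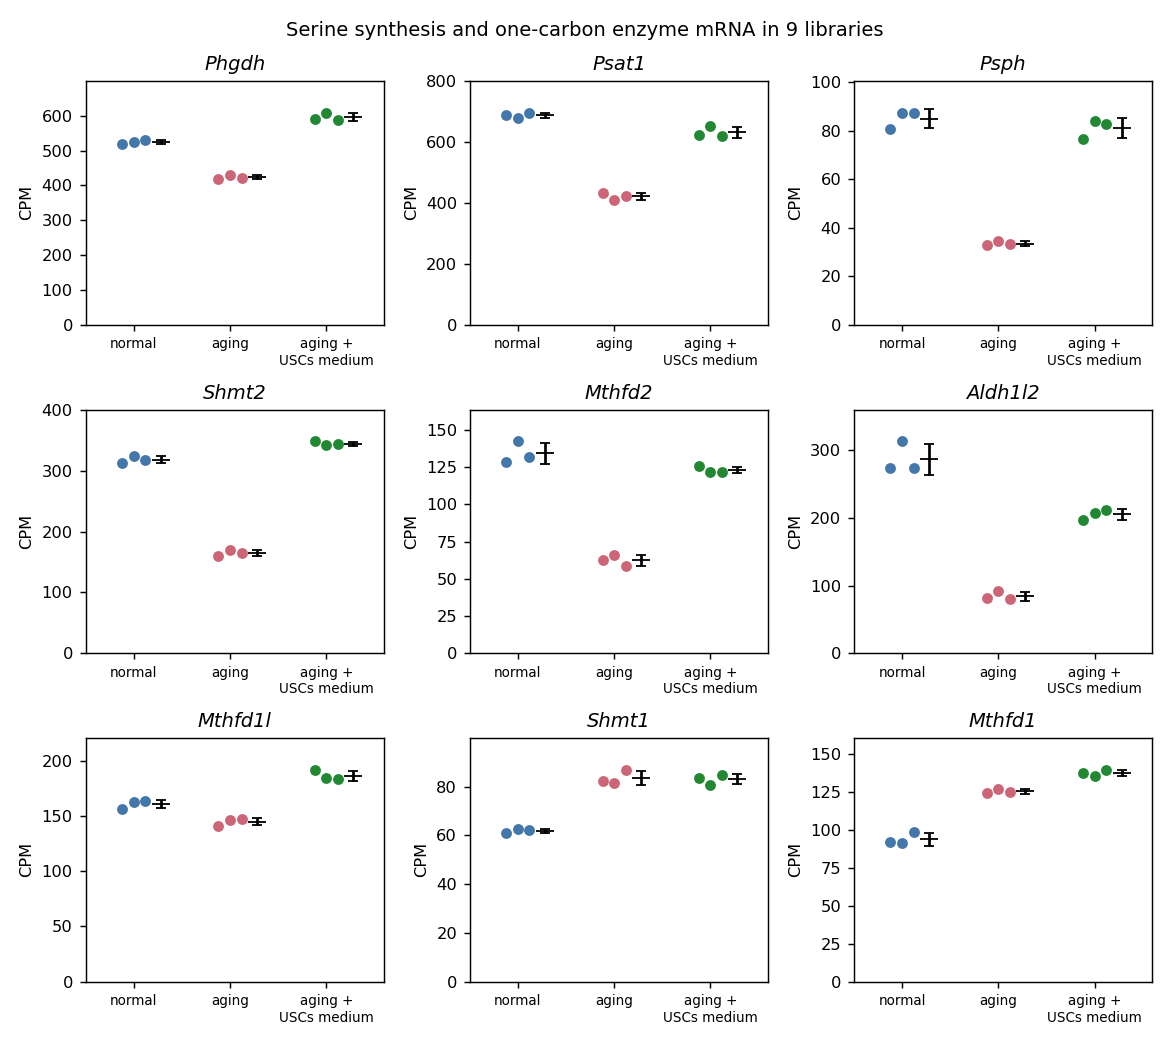
Level in CPM of each of the 9 enzymes in normal RGCs (blue), aging RGCs (red) and aging RGCs + USCs medium (green), with 1 point per library and the mean ± SD of 3 libraries as a black bar. The first 7 panels show lower values in the 3 aging libraries than in the other 6, and Shmt1 and Mthfd1 show lower values in the 3 normal libraries.

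Phgdh, whose product takes the first step of serine synthesis, had 518, 524 and 532 CPM in normal, 419, 429 and 422 CPM in aging and 592, 608 and 588 CPM in medium-treated RGCs. No values of different groups overlapped, and the medium-treated libraries were the highest. Phgdh fell from 525 ± 6.58 CPM (SD, n = 3) to 423 ± 5.26 CPM in aging RGCs (log2 fold change -0.31, standard error 0.0299, edgeR adjusted p = 1.62e-09). In the medium it reached 596 ± 10.9 CPM (log2 fold change 0.49, standard error 0.0299, edgeR adjusted p = 7.17e-14). Psat1, the transaminase of the chain, had 690.2, 679 and 696 CPM in normal, 434, 409.6 and 422 CPM in aging and 623, 653 and 621 CPM in medium-treated RGCs. Its normal libraries were the highest, and again no groups overlapped. The mean of 689 ± 8.44 CPM (SD, n = 3) in normal RGCs fell to 422 ± 12.2 CPM (log2 fold change -0.71, standard error 0.0316, edgeR adjusted p = 9.54e-17), and with the medium it rose to 633 ± 17.9 CPM (log2 fold change 0.58, standard error 0.0316, edgeR adjusted p = 6.2e-15).

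Psph, the phosphatase that releases serine, had the largest change of the 3 steps. It had 80.6, 87.5 and 87.2 CPM in normal, 32.8, 34.5 and 33.3 CPM in aging and 76.5, 84.0 and 83.0 CPM in medium-treated RGCs. The aging libraries lay below the others by more than the spread within any group, and the normal and medium-treated libraries overlapped. Psph fell from 85.1 ± 3.9 CPM (SD, n = 3) to 33.5 ± 0.872 CPM (log2 fold change -1.34, standard error 0.0534, edgeR adjusted p = 8.11e-18) and rose to 81.2 ± 4.09 CPM in the medium (log2 fold change 1.28, standard error 0.0539, edgeR adjusted p = 2.77e-17). The 95% intervals of the log2 fold change in aging RGCs were -0.37 to -0.25 for Phgdh, -0.77 to -0.64 for Psat1 and -1.45 to -1.23 for Psph, and no pair of these intervals overlapped. The 3 steps of 1 chain thus fell by unequal amounts.

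Among the mitochondrial enzymes, Shmt2 had 313, 324 and 318 CPM in normal, 159, 169.6 and 166 CPM in aging and 349, 342 and 344 CPM in medium-treated RGCs. The lowest values were in the aging libraries and the highest in the medium. Shmt2 fell from 318 ± 5.91 CPM (SD, n = 3) to 165 ± 5.19 CPM (log2 fold change -0.95, standard error 0.0339, edgeR adjusted p = 6.4e-19) and rose to 345 ± 3.32 CPM (log2 fold change 1.07, standard error 0.034, edgeR adjusted p = 5.33e-20). Mthfd2, the mitochondrial dehydrogenase, had 129, 142 and 131 CPM in normal, 62.6, 66.3 and 58.9 CPM in aging and 126, 122 and 122 CPM in medium-treated RGCs. All 3 aging values lay below the other 6, and the normal values lay above those of the medium. Its mean fell from 134 ± 7.19 CPM (SD, n = 3) to 62.6 ± 3.7 CPM (log2 fold change -1.10, standard error 0.0472, edgeR adjusted p = 3.99e-17), and in the medium it was 123 ± 2.25 CPM (log2 fold change 0.98, standard error 0.0476, edgeR adjusted p = 6.36e-16).

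Aldh1l2, which oxidises the formyl group in mitochondria, moved most of the 9 genes. Its values were 274, 314 and 274 CPM in normal, 81.4, 91.4 and 80.0 CPM in aging and 197, 207 and 212 CPM in medium-treated RGCs. The 3 groups were separate, with the medium between the others. Aldh1l2 fell from 287 ± 22.8 CPM (SD, n = 3) to 84.2 ± 6.22 CPM (log2 fold change -1.77, standard error 0.0507, edgeR adjusted p = 4.55e-21) and rose to 205 ± 7.59 CPM (log2 fold change 1.29, standard error 0.0514, edgeR adjusted p = 7.95e-18). Mthfd1l, the mitochondrial formate-releasing enzyme, changed least among the 4. It had 157, 162 and 163 CPM in normal, 141, 146 and 147 CPM in aging and 192, 184 and 183 CPM in medium-treated RGCs, with no overlap between groups. Its log2 fold change was -0.15 in aging RGCs (standard error 0.0366, edgeR adjusted p = 0.00118) and 0.36 in the medium (standard error 0.0364, edgeR adjusted p = 1.9e-09).

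The cytosolic enzymes moved the other way in aging RGCs. Shmt1 had 60.9, 62.6 and 62.2 CPM in normal, 82.1, 81.4 and 86.9 CPM in aging and 83.5, 80.7 and 84.9 CPM in medium-treated RGCs. The normal libraries were the lowest, and the aging and medium-treated libraries overlapped. Shmt1 rose from 61.9 ± 0.891 CPM (SD, n = 3) to 83.5 ± 2.98 CPM in aging RGCs (log2 fold change 0.43, standard error 0.0452, edgeR adjusted p = 7.29e-09). In the medium it was 83.0 ± 2.15 CPM, and the log2 fold change against aging RGCs was -0.0081 with a 95% interval of -0.10 to 0.083 (edgeR adjusted p = 0.894, and 0.0651 to 1 over the alternatives). Mthfd1, a protein with 3 folate activities, had 91.8, 91.1 and 98.7 CPM in normal, 124, 127 and 125 CPM in aging and 138, 135 and 139.7 CPM in medium-treated RGCs. The groups were separate and rose in that order. Mthfd1 rose from 93.9 ± 4.18 CPM (SD, n = 3) to 125 ± 1.45 CPM in aging RGCs (log2 fold change 0.42, standard error 0.0402, edgeR adjusted p = 1.5e-09). Its further step to 138 ± 2.12 CPM had a log2 fold change of 0.13 (edgeR adjusted p = 0.00519), which did not pass without TMM factors (log2 fold change 0.056, edgeR adjusted p = 0.235), within 0.00208 to 0.24 over the alternatives.

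**Figure D2:**
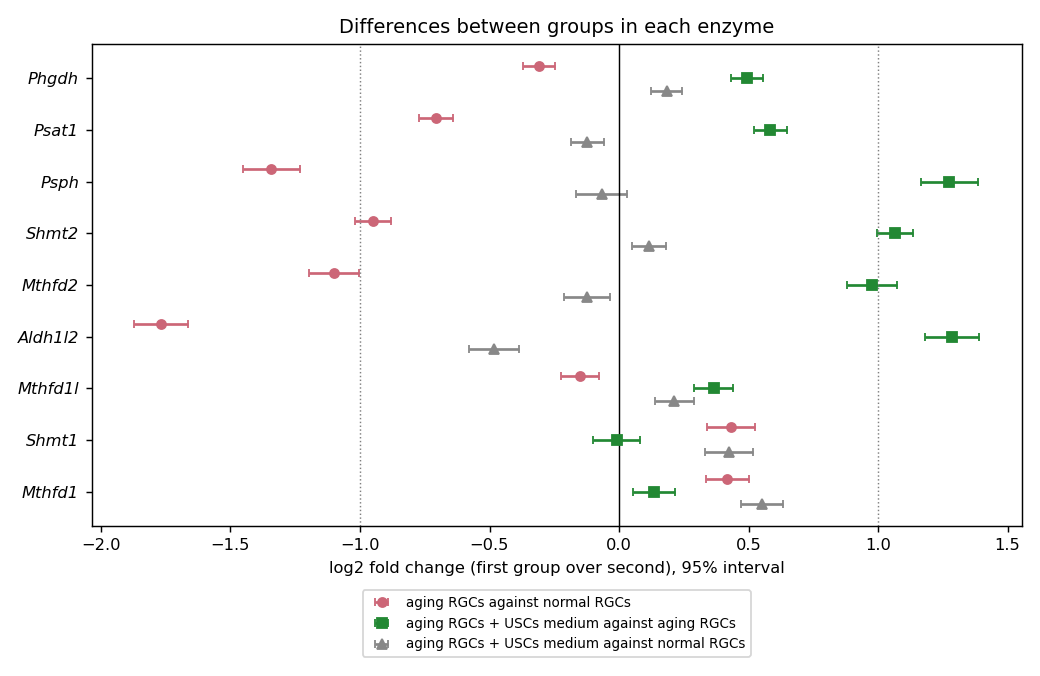
Log2 fold change of each enzyme with its 95% interval from the edgeR fit, for aging against normal RGCs (red circles), aging RGCs + USCs medium against aging RGCs (green squares) and aging RGCs + USCs medium against normal RGCs (grey triangles). Dotted lines mark a log2 fold change of 1 in either direction. The red and green points of the upper 7 genes lie on opposite sides of 0, and the grey triangles lie between -0.48 and 0.55.

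Medium-treated RGCs were then compared with normal RGCs directly, which asks where the enzymes stood after both treatments. None of the 9 genes was a DEG between these groups by edgeR or DESeq2, where 6.72% of all genes tested were, 1.47% higher and 5.24% lower. At an adjusted p under 0.05, 8 genes passed by edgeR, 5 higher and 3 lower, and of all genes 60.5% passed, 30.6% higher and 29.9% lower. The libraries of both groups were apart for 8 of the 9 genes, all but Psph, against 63.8% of all genes tested. The 9 log2 fold changes lay between -0.48 and 0.55. Aldh1l2 remained lower than in normal RGCs (log2 fold change -0.48, standard error 0.0469, edgeR adjusted p = 6.74e-10), and Psat1 was also lower, with a log2 fold change of -0.12 (edgeR adjusted p = 0.00124). Phgdh and Mthfd1l were higher than in normal RGCs, with log2 fold changes of 0.18 and 0.21 (edgeR adjusted p = 4.9e-06 and 8.75e-06). Without TMM factors these changes were 0.083 and 0.11 and that of Psat1 was -0.22, and all 3 still passed (edgeR adjusted p = 0.0137, 0.00657 and 4.73e-07). The cytosolic enzymes stayed above normal, Shmt1 by 0.42 and Mthfd1 by 0.55 on the log2 scale (edgeR adjusted p = 4e-09 and 1.74e-12).

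The other 3 genes lay close to normal, and for them the calls themselves depended on the scaling or on single libraries. Psph had a log2 fold change of -0.067 with a 95% interval of -0.17 to 0.032 (edgeR adjusted p = 0.236), but without TMM factors it was -0.17 with an adjusted p of 0.00389 by edgeR, within 0.00389 to 0.699 over the alternatives. Shmt2 was higher by 0.12 on the log2 scale (edgeR adjusted p = 0.00307), but by only 0.015 without TMM factors (edgeR adjusted p = 0.692), within 0.000843 to 0.693. Leaving out the TMM factors moved the median of all genes tested from -0.013 to -0.11, and split the 8 genes that passed into 4 higher and 4 lower. Mthfd2 had a log2 fold change of -0.12, that is, it was lower (edgeR adjusted p = 0.017). Its adjusted p by edgeR was 0.121 without normal replicate 2, 0.0552 without medium-treated replicate 2 and 0.055 without medium-treated replicate 3, within 8.24e-05 to 0.121 over the alternatives.

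The balance between mitochondrial and cytosolic enzymes was read from FPKM values, which are scaled by transcript length and so allow levels of different genes to be compared. In normal RGCs the level per length of Shmt2 was 6.38 to 6.42 times that of Shmt1 over the 3 libraries. In aging RGCs this ratio was 2.34 to 2.58, and in the medium it was 5.05 to 5.24. The 3 groups were separate, with the medium between the others. The ratio of Mthfd2 to Mthfd1 was 2.08 to 2.42 in normal libraries, 0.711 to 0.794 in aging libraries and 1.31 to 1.44 with the medium, so that in the aging libraries the cytosolic mRNA was the more abundant. For Mthfd1l over Mthfd1 the values were 1.46 to 1.57, 0.978 to 1.01 and 1.11 to 1.2. In all 3 pairs the order of the groups was normal, medium, aging, without overlap. The pairs of Mthfd2 and Mthfd1l share Mthfd1, so they are not independent. Such separation was common in single genes. Aging and normal values were apart in 53% of all genes tested, medium-treated and aging values in 59.8%, and medium-treated and normal values in 63.8%. With 3 libraries against 3, an exact permutation test cannot give a two-sided p below 0.1, so none is given.

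**Figure D3:**
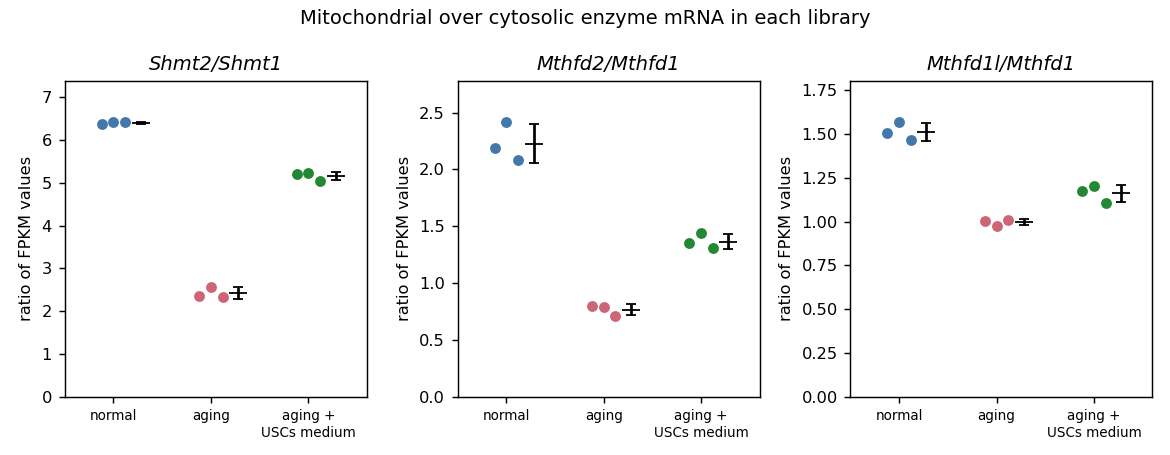
Ratio of the FPKM value of a mitochondrial enzyme to that of its cytosolic counterpart in each library, with 1 point per library and the mean ± SD of 3 libraries as a black bar. The Shmt2 to Shmt1 ratio spans 6.38 to 6.42 in the normal, 2.34 to 2.58 in the aging and 5.05 to 5.24 in the medium-treated libraries.

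The 9 genes also differed widely in level. In normal RGCs, Phgdh and Psat1 were the most abundant per length, at 285 ± 2.11 and 285 ± 2.81 FPKM (SD, n = 3), and did not differ beyond their spread. Shmt2 followed with 143 ± 2.37 FPKM and Mthfd2 with 66.6 ± 3.31 FPKM. Psph, Aldh1l2 and Mthfd1l came next, at 51.8 ± 2.23, 49.1 ± 3.84 and 45.3 ± 0.823 FPKM, and the libraries of Aldh1l2 overlapped those of Psph but not those of Mthfd1l. Mthfd1 and Shmt1 were lowest, with 29.96 ± 1.14 and 22.4 ± 0.322 FPKM. In aging RGCs, Aldh1l2 had become the lowest at 14.2 ± 1.06 FPKM and Psph the next, at 20.2 ± 0.400 FPKM, below Shmt1 with 30.2 ± 1.1 FPKM. Psat1, which overlapped Phgdh in normal RGCs, was at 172 ± 6.52 against 226 ± 2.45 FPKM in aging and at 244 ± 6.64 against 302 ± 4.81 FPKM in medium-treated RGCs. Phgdh exceeded Psat1 in 2 of the 3 normal libraries and in all 6 others, and the ratio of Psat1 to Phgdh was 0.988 to 1.01 in the normal, 0.721 to 0.793 in the aging and 0.799 to 0.817 in the medium-treated libraries.

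The genes around the pathway were described from 7 lists of 56 genes, of which 46 were tested. In aging RGCs 15 of the 46 were higher and 12 lower at an adjusted p under 0.05 by edgeR, beside 23.6% and 23% of all genes tested, and without TMM factors the split was 13 and 14. Their median log2 fold change was 0.035. In the medium against aging RGCs 24 were higher and 5 lower, beside 27.1% and 26% of all genes, with a median of 0.12, and without TMM factors the split was 16 and 8. Against normal RGCs the medium-treated RGCs had 20 higher and 11 lower, beside 30.6% and 29.9% of all genes, and 17 and 16 without TMM factors. Of the 12 lower genes in aging RGCs, 3 were DEGs, Cth, Slc6a9 and Slc1a4.

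Of the other folate enzymes, 8 of 10 were tested. Tyms, which makes thymidylate, rose from 40.9 ± 2.07 to 56.0 ± 3.95 CPM (SD, n = 3) in aging RGCs (log2 fold change of 0.45 with edgeR adjusted p = 3.08e-07). In the medium 4 of the 8 were upregulated, beside 27.1% of all genes tested. The largest rise was that of Mtfmt, the mitochondrial formyltransferase for initiator tRNA (log2 fold change of 0.46 with edgeR adjusted p = 4.46e-05). Mthfd2l, the paralogue of Mthfd2, had a mean of 16.5, 14.9 and 17.6 CPM in normal, aging and medium-treated RGCs. Its log2 fold change in aging RGCs was -0.15 (edgeR adjusted p = 0.191), and that in the medium was 0.24 (edgeR adjusted p = 0.0296), a call lost without TMM factors (edgeR adjusted p = 0.144) and without aging replicate 1 or 3 or medium-treated replicate 2 or 3 (edgeR adjusted p = 0.117, 0.109, 0.0704 and 0.094). Fpgs, which traps folate in cells, had a log2 fold change of 0.32 in the medium (edgeR adjusted p = 0.00167), which did not pass with limma on FPKM at a pseudocount of 1 (log2 fold change 0.22, adjusted p = 0.0501).

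Among the carriers of folate and serine, 10 of 12 were tested. Slc6a9, a glycine transporter, had 84.3, 78.7 and 84.1 CPM in normal, 27.5, 28.5 and 30.2 CPM in aging and 39.2, 37.3 and 38.2 CPM in medium-treated RGCs. It fell in aging RGCs (log2 fold change of -1.52 with edgeR adjusted p = 6.97e-19), rose in the medium (log2 fold change of 0.41 with edgeR adjusted p = 1.09e-06) and was still a DEG below normal (log2 fold change of -1.11 with edgeR adjusted p = 1.91e-16). Slc1a4, which carries serine and alanine, had 184, 183 and 175 CPM in normal, 73.2, 77.2 and 75.1 CPM in aging and 98.3, 100.1 and 92.0 CPM in medium-treated RGCs. It too was lower in the medium than in normal RGCs (log2 fold change of -0.90 with edgeR adjusted p = 7.03e-17). In both carriers the medium-treated values lay closer to the aging than to the normal values, whereas those of Psph, Shmt2 and Mthfd2 lay closer to the normal ones. Slc1a5, a glutamine transporter, fell in aging RGCs (log2 fold change of -0.52 with edgeR adjusted p = 5.37e-12) and rose in the medium (log2 fold change of 0.51 with edgeR adjusted p = 4.43e-12). Of the 10, 6 were higher and 3 lower in the medium than in aging RGCs, beside 27.1% and 26% of all genes tested. The 3 lower genes were Slc46a1, a folate transporter (log2 fold change of -0.51 with edgeR adjusted p = 0.00339), Sfxn3 and Slc38a2. Sfxn3 and Slc38a2 had log2 fold changes of -0.39 and -0.29 (edgeR adjusted p = 1.17e-06 and 1.68e-08). Slc38a2 had fallen in aging RGCs as well (log2 fold change of -0.27 with edgeR adjusted p = 9.99e-08). Slc25a32, the mitochondrial folate carrier, had 58.7, 64.7 and 77.3 CPM, and Sfxn1, the mitochondrial serine carrier, 122, 117 and 133 CPM, in the 3 groups. Their log2 fold changes were 0.14 and -0.063 in aging RGCs (edgeR adjusted p = 0.022 and 0.237).

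The list of serine use held Cth, the last enzyme of cysteine synthesis, which acts after the step that takes up serine. Cth had 24.9, 31.5 and 25.5 CPM in normal, 8.11, 7.16 and 6.94 CPM in aging and 26.6, 27.2 and 22.6 CPM in medium-treated RGCs. Its log2 fold change in aging RGCs was -1.88 (edgeR adjusted p = 1.45e-14), and that in the medium was 1.78 (edgeR adjusted p = 4.38e-14), and normal and medium-treated values overlapped, as for Psph. Cbs, the enzyme before it, did not rise in the medium but fell, from 10.1 CPM in normal to 7.01 CPM in aging (log2 fold change of -0.53 with edgeR adjusted p = 0.00147) and 4.7 CPM in medium-treated RGCs (log2 fold change of -0.58 with edgeR adjusted p = 0.00147). The first of these did not pass with limma on FPKM (adjusted p = 0.17 and 0.183 with pseudocounts of 1 and 0.1). Srr, serine racemase, fell in aging RGCs (log2 fold change of -0.61 with edgeR adjusted p = 2.46e-07). The 3-phosphoglycerate branch point, from which serine synthesis starts, held Pgk1 and Pgam1 higher in aging RGCs by 0.15 and 0.24 on the log2 scale (edgeR adjusted p = 0.000151 and 1.17e-07) and Bpgm lower (log2 fold change of -0.34 with edgeR adjusted p = 0.00207). The last did not pass with limma on FPKM either (adjusted p = 0.182 and 0.18). In the glycine cleavage system, 2 of 4 genes rose in the medium, beside 27.1% of all genes tested. They were Gcsh and Dld, with log2 fold changes of 0.53 and 0.59 (edgeR adjusted p = 1.18e-08 and 6.82e-13). Gldc, the decarboxylase of the system, was at 1.05, 1.29 and 1.32 CPM in normal, aging and medium-treated RGCs. Amt was at 1.36, 1.31 and 0.779 CPM. Gldc and Amt did not pass in the medium against aging RGCs (edgeR adjusted p = 0.93 and 0.0772).

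Purine synthesis and the methionine cycle use the carbon units. Of 6 enzymes of purine synthesis, 5 were upregulated in aging RGCs, beside 23.6% of all genes tested, led by Pfas (log2 fold change of 0.36 with edgeR adjusted p = 2.42e-07) and Atic (log2 fold change of 0.33 with edgeR adjusted p = 7.95e-09). Paics passed in the medium (log2 fold change of 0.40 with edgeR adjusted p = 1.5e-10), where 5 of the 6 were again higher, beside 27.1% of all genes tested. Without TMM factors 4 were higher and 1 lower. Of 7 tested genes listed for the methionine cycle, 4 were higher and 1, Ahcyl1, was lower in aging RGCs, beside 23.6% and 23% of all genes tested. With limma on FPKM the split was 2 and 1. Ahcy, which clears S-adenosylhomocysteine, was higher by 0.42 on the log2 scale (edgeR adjusted p = 1.61e-11) and Mat2a, which makes S-adenosylmethionine, by 0.24 (edgeR adjusted p = 3.47e-07). Ahcyl2 was the gene of this list that fell most in the medium (log2 fold change of -0.52 with edgeR adjusted p = 1.12e-05). There 4 were higher and 1 lower, beside 27.1% and 26% of all genes tested, or 1 and 2 without TMM factors. Genes of S phase were also higher in aging RGCs, 11 of 12 beside 23.6% of all genes, with a median log2 fold change of 0.44, led by Cdc6 (log2 fold change of 0.77 with edgeR adjusted p = 1.65e-13), Mcm5 (log2 fold change of 0.69 with edgeR adjusted p = 1.15e-13) and Rrm1 (log2 fold change of 0.67 with edgeR adjusted p = 7.86e-16). In the medium Rrm2 rose further (log2 fold change of 0.65 with edgeR adjusted p = 4.37e-16). There 7 of the 12 were higher than in aging RGCs, beside 27.1% of all genes tested, or 4 higher and 1 lower without TMM factors. Shmt1 and Mthfd1, with log2 fold changes of 0.43 and 0.42 in aging RGCs, lay near the median of the S phase genes. By flow cytometry, which measures cells and not mRNA, the paper reported fewer aging than normal RGCs in S phase and more in G1. Whether the level of S phase genes had a part in the result was not tested.

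Atf4 itself had 623, 676 and 629 CPM in normal, 337, 328 and 338 CPM in aging and 524, 570.1 and 542 CPM in medium-treated RGCs. The 3 groups were separate, in the order of Aldh1l2, Psat1 and Mthfd2. Its mRNA fell in aging RGCs (log2 fold change of -0.94 with edgeR adjusted p = 2.31e-18) and rose in the medium (log2 fold change of 0.71 with edgeR adjusted p = 1.37e-15). A list of Atf4 and some of its targets, other than the 9 enzymes, held 12 genes, of which 11 were tested. All 11 were lower in aging RGCs, beside 23% of all genes, and higher in the medium, beside 27.1%. Their median log2 fold changes were -1.06 and 0.66. Asns, which makes asparagine, had 296, 326 and 304 CPM in normal, 114, 119 and 114 CPM in aging and 302, 299 and 296 CPM in medium-treated RGCs, so that normal and medium-treated values overlapped. Against normal RGCs 10 of the 11 were lower in the medium, beside 29.9% of all genes tested, and of the 9 enzymes 3 were lower, or 4 without TMM factors. Trib3, a pseudokinase, was at 126, 36.6 and 80.3 CPM and Chac1, which degrades glutathione, at 48.7, 9.99 and 22.4 CPM in normal, aging and medium-treated RGCs. Nupr1, Ddit4 and Ddit3 were the other DEGs of the list in aging RGCs, with log2 fold changes of -1.08, -1.06 and -1.62. Another row named Ddit3 in the table had 0 reads in all libraries and was not used.

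**Figure D4:**
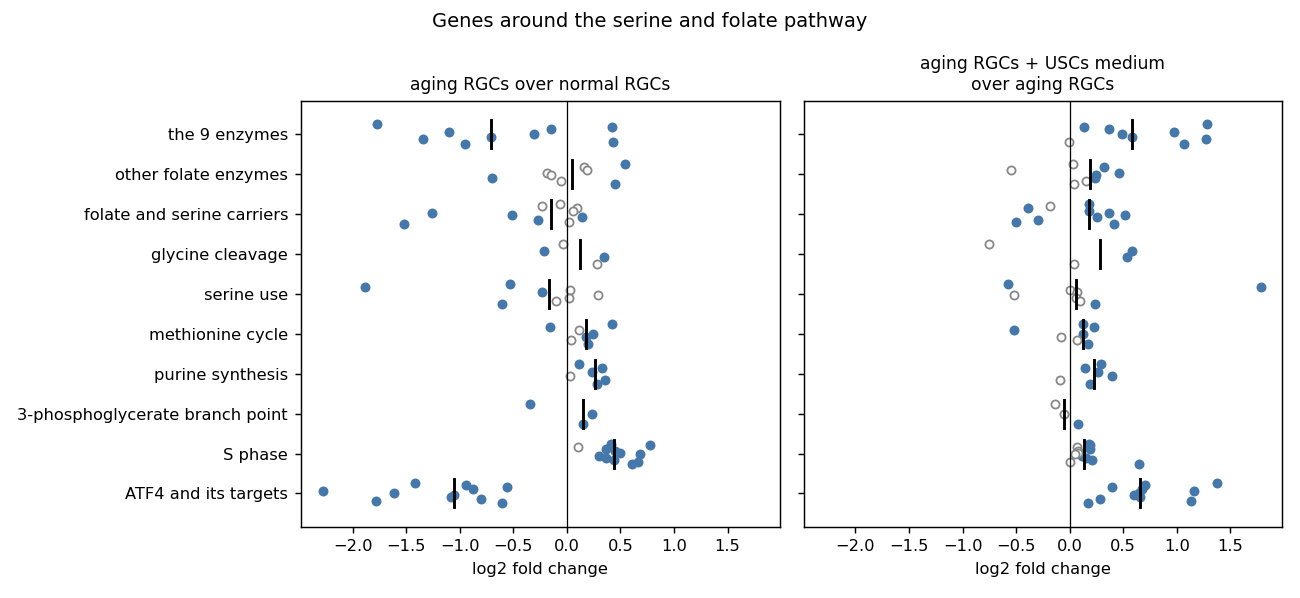
Log2 fold change of each gene of the 9 enzymes and of 9 lists around them, for aging RGCs over normal RGCs (left) and for aging RGCs + USCs medium over aging RGCs (right). Each point is 1 gene, filled where the adjusted p by edgeR was under 0.05 and open otherwise, and the black bar is the median of the list. The 9 enzymes and the 11 genes of Atf4 and its targets have medians of -0.71 and -1.06 on the left and of 0.58 and 0.66 on the right.

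Genes with the most similar pattern were sought among 10801 genes that had a mean log2 CPM of 1 or more. Each profile over the 9 libraries was centred on its own mean, and likeness was the root mean squared difference in log2 CPM from the mean profile of the enzymes. For Phgdh, Psat1 and Psph the 5 nearest genes were Grb10 (0.0369), Lars (0.0507), Tars (0.0625), Klf5 (0.0653) and Gars (0.0653). For Shmt2, Mthfd2, Mthfd1l and Aldh1l2 they were Nars (0.0341), Phf10 (0.0467), Gars (0.0543), Prune2 (0.0756) and Glipr2 (0.0826). Lars, Tars, Gars and Nars encode aminoacyl-tRNA synthetases, for leucine, threonine, glycine and asparagine. Gars, which loads glycine on its tRNA, was near both profiles, with 440.0 CPM in normal, 236 CPM in aging and 425 CPM in medium-treated RGCs. Nars was at 770.4, 405 and 745 CPM, and Grb10, an adaptor of insulin signalling, at 269.9, 160.4 and 272 CPM. These genes were chosen for their pattern, so no test of it is given.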

How the data were processed

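RNA of 9 cultures was sequenced after enrichment of mRNA by oligo(dT). The authors deposited an expected count, an estimated number of reads that is not normalized, and an FPKM value for each gene and library. The sources used here do not give the aligner or the counting program. Expected counts were rounded, since 6.92% to 7.38% of the values were not whole. Of 22322 genes, edgeR 4.0.16 in R 4.3.3 kept 12145 with filterByExpr. TMM factors of 0.9562 to 1.034 were used, the model held a mean for each group over all 9 libraries, and p-values of its quasi-likelihood F test were adjusted by the Benjamini-Hochberg method. The code was tested on simulated data. DEGs needed an adjusted p below 0.05 as well as a log2 fold change of 1 or more in size.

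The enzymes, the lists and the tests were chosen with earlier results of these data known. The rule for naming took from each list its DEGs and up to 3 genes with the largest change among those that passed, of which the text gives a part, and the 5 genes nearest in pattern. Slc25a32, Sfxn1, Sfxn3, Gldc, Amt and Atf4 were named after their values were seen. The deviations of same-numbered replicates from their group means had correlations of -0.094 to 0.059 over 9 pairs, and the numbers were not taken to pair wells. Alternatives were DESeq2 1.42.0, no TMM factors, median-of-ratios size factors, no filter on low counts, only the groups compared, the replicate block, limma 3.58.1 on log2 FPKM with pseudocounts of 1 and 0.1, and each library left out. Promoters were taken from RefSeq for 8 of the 9 genes. Flow cytometry and staining are not analysed here, and some genes of the lists are not reported here.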

Additional observations from a re-analysis of the deposited data

How the results depend on the processing

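The counts of enzymes that passed and that were DEGs stayed within 1.5 times of their value under every alternative, with a ratio of exactly 1.5 included. In the medium against aging RGCs, Shmt2 was no longer a DEG without TMM factors or with limma on FPKM at a pseudocount of 1. Its log2 fold changes there were 0.99 and 0.98. The replicate block gave 9, 8 and 8 enzymes that passed in the 3 comparisons and changed no call of an enzyme. With each library left out in turn, 9, 8, and 7 to 8 enzymes passed, 3, 3 to 4, and 0 were DEGs, and 25 to 28, 26 to 30 and 30 to 35 of the other pathway genes passed. Over the 3 comparisons and all alternatives, 445 log2 fold changes of single enzymes kept their direction and their side of the threshold, 9 no longer passed, 3 newly passed and 2 changed sign. The last were those of Shmt1 in the medium against aging RGCs, 0.023 without aging replicate 3 and 0.015 without medium-treated replicate 2, and with each library left out it ranged from -0.0237 to 0.0233. Pgk1 in the same comparison, 0.077 by the reported fit, was -0.00150 without TMM factors and -0.00123 with limma on FPKM, at either pseudocount. In this comparison the median log2 fold change of all genes tested was -0.0067 by the reported fit and -0.085 without TMM factors. With limma on FPKM it was -0.061 and -0.076 at pseudocounts of 1 and 0.1. The cause was not tested. Smaller lists moved by more than 1.5 times. With limma on FPKM, in aging against normal RGCs, the genes of serine use that passed went from 4 to 2 and those of the methionine cycle from 5 to 3. In the medium against aging RGCs the same tool took the methionine cycle from 5 to 2, purine synthesis from 5 to 3, S phase from 7 to 4 and, with a pseudocount of 1, the other folate enzymes from 4 to 2. Without TMM factors the methionine cycle had 3 there, and serine use went from 2 to 5 in the medium against normal RGCs. Pgk1, the gene of the 3-phosphoglycerate list that passed in the medium against aging RGCs, no longer passed without aging replicate 2 or 3 or medium-treated replicate 2. At these depths each enzyme had at least 607 reads in every library, and with 3 wells a group the spread between wells rests on few samples.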
